A study of Mus musculus with 32 samples.

Results

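*Trp53*, which encodes the transcription factor p53, and the genes *Mdm2*, *Mdm4*, *Ccng1*, *Bax*, *Bbc3*, *Phlda3*, *Sesn2*, *Trp53inp1* and *Zmat3* were followed in mouse embryonic stem cells (mESCs). The 10 genes were chosen by name, as *Trp53*, its main inhibitors and known p53 targets, out of 24028 gene symbols with an expression value. The study asked how Polycomb proteins bear on the low DNA methylation of long regulatory regions, and its RNA-seq compared WT mESCs with mESCs that lack *Eed*, a core subunit of the Polycomb repressive complex that methylates histone H3 on lysine 27. Both RNA-seq libraries carried the strain label TT2 and differed in the genotype label, WT or Eed-/-. By the paper's methods, all mESCs were kept in medium with serum and leukaemia inhibitory factor on gelatin-coated plates. Total RNA depleted of ribosomal RNA was sequenced strand-specifically. There was 1 library per genotype, so no spread between cultures could be measured, no test was possible, and each value below compares 2 libraries rather than 2 genotypes. With bulk RNA, a change in every cell and a change in a share of the cells cannot be told apart.

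p53 binds DNA as a tetramer and activates genes for cell cycle arrest, DNA repair, metabolism and apoptosis when DNA is damaged or growth is disturbed. MDM2, itself the product of a p53 target gene, marks p53 for degradation, and MDM4 blocks its activation domain, so that p53 is controlled largely at the level of the protein. mESCs are known for abundant p53 and for a high readiness to enter apoptosis. The values here are RNA levels and do not measure p53 protein.

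*Eed*, the gene named by the genotype (chromosome 7 of mm9, 97103166 to 97129493), had a level of 63.0 FPKM (fragment counts divided by transcript length and library size) in WT and 70.9 FPKM in the library labelled Eed-/-. Its difference was 0.40 on the scale used throughout, the log2 of quantile-normalized FPKM plus 1 in the library labelled Eed-/- minus that in WT. The 95% counting interval, which covers counting error of the fragments only and not the spread between cultures, ran from 0.26 to 0.53. The transcript was not lower in the library labelled Eed-/-, so the RNA level gave no check of the genotype label. The paper reports a check of another kind on its Eed-/- mESCs. There the loss of *Eed* was tested through the histone methylation that its complex makes, by western blot and by chromatin immunoprecipitation sequencing. Eed-/- samples of other assays in the series carried a strain label other than TT2. The recovered depth was about 7200000 fragments for WT and 6460000 for the library labelled Eed-/-. All 13 markers of embryonic stem cells were detected in both libraries, with summed levels of 1542 FPKM in WT and 1582 FPKM in the library labelled Eed-/-. Single markers moved in both directions, 7 above 0 and 6 below. Their differences ran from -0.59 for *Dppa4* (47.0 and 26.9 FPKM) to 1.30 for *Zfp42* (131 and 272 FPKM). Markers of other cell types moved between the libraries. The summed level of 10 fibroblast markers went from 27.8 to 129 FPKM, carried by *Vim* (24.9 and 118 FPKM), with 3 of the 10 listed at 0 in each library. Of the 4 fibroblast markers tested, 3 lay above 0 and 1 below, and *Thy1* was, like *Vim*, at least 2-fold higher (0.98 and 6.97 FPKM). The collagen genes of that list were near 0 and had lower values in the library labelled Eed-/-, as for *Col1a1* at 0.46 and 0.14 FPKM. The summed level of 8 primitive endoderm markers went from 15.4 to 56.6 FPKM, with 1 listed at 0 in each library. It was carried by *Lama1* (8.25 and 33.5 FPKM) and *Col4a1* (5.62 and 19.1 FPKM). All 7 of these markers that were tested lay above 0, but the others were low, as for *Gata4* at 0.43 and 1.35 FPKM. The summed level of 7 trophoblast markers went from 43.6 to 13.7 FPKM, with 2 of them at 0 for WT and 1 for the library labelled Eed-/-. The last sum was carried by *Tfap2c* (39.8 and 9.21 FPKM); of the 6 trophoblast markers tested, 3 lay above 0 and 3 below, and *Eomes* was at least 2-fold higher (0.48 and 1.93 FPKM). Their part in the differences below was not tested.

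RefSeq promoters, running from 250 bases before to 50 bases after a transcription start, were at hand for 8 of the 10 genes, in 11 windows. They were searched for the p53 decamer, a run of 3 purines, C, 2 bases that are A or T, G and 3 pyrimidines, which reads the same on both strands. A full p53 site consists of 2 such decamers. Promoters of 4 genes held 1 decamer each, whereas 9.55% of all genes with a promoter in the table held at least 1 in any of their windows, and 8.36% of all 32851 windows did. The letters CATG, 1 form that the middle of the decamer can take, were searched for as well, anywhere in a window. They stood in 3 of the 11 windows of these genes, a lower share than the 61.1% of all windows. The 4 decamers have CTTG or CAAG in the middle, not CATG. The 10 genes were chosen by name for their known tie to p53, so neither share can be read as a finding. The 4 promoters with a decamer are shown because they carry the letters that p53 recognises. The decamer is in capitals, 5′ to 3′ on the strand of the gene. The sequences are those of RefSeq for GRCm38.p6, and each matched a single place in mm9, at chr11:69393611-69393910 (plus strand) for *Trp53*, chr10:117147765-117148064 (minus strand) for *Mdm2*, chr11:40568739-40569038 (minus strand) for *Ccng1* and chr7:52722219-52722518 (minus strand) for *Bax*.
Trp53: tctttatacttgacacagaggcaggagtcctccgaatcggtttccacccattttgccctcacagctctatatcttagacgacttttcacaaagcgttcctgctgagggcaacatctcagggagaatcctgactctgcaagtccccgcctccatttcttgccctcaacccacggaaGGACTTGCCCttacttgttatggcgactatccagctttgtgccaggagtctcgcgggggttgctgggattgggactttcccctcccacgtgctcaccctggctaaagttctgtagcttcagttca
Mdm2: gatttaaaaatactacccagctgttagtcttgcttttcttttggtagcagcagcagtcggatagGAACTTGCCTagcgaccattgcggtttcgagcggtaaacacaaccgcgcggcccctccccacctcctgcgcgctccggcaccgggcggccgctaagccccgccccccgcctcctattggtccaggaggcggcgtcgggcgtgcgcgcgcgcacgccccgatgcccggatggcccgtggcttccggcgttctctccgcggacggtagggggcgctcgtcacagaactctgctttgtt
Ccng1: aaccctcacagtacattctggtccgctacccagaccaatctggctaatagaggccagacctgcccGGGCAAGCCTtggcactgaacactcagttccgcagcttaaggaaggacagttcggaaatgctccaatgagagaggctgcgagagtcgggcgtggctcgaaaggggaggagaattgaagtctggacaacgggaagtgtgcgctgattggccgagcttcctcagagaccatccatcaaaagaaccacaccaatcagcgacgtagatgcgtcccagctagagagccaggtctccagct
Bax: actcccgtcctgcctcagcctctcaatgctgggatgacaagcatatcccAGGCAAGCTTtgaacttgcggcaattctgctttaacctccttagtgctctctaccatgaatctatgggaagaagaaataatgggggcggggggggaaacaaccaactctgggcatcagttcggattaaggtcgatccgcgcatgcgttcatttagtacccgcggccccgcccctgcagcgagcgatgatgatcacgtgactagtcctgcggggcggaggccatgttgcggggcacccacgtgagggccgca
The decamer began 75 bases before the start in *Trp53*, 186 in *Mdm2*, 185 in *Ccng1* and 201 in *Bax*. A match describes letters only; it shows no binding, and sites farther from the start, where several known p53 sites of these genes lie, were not searched. The differences were close to each other and below 0 for *Trp53* (-0.12), *Mdm2* (-0.19) and *Bax* (-0.15). That of *Ccng1* lay above 0, at 0.48.

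All 10 genes were expressed in both libraries and passed the filter on low values, a mean normalized level of at least 0.1 FPKM. Their levels ran from 7.22 to 167 FPKM in WT and from 6.73 to 126 FPKM in the library labelled Eed-/-. None of the 10 differed by 2-fold in either direction, and 7.78% of all 14835 genes tested did (3.80% higher and 3.98% lower in the library labelled Eed-/-). For a list of 10 genes, a count of 0 is not far from that share. A difference below 0 was seen in 8 of the 10 genes and in 49.0% of all genes tested. The median difference of the 10 genes was -0.16, and that of all genes tested was 0.01. The range reached from -0.64 for *Trp53inp1* to 0.48 for *Ccng1*.

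**Figure D1:**
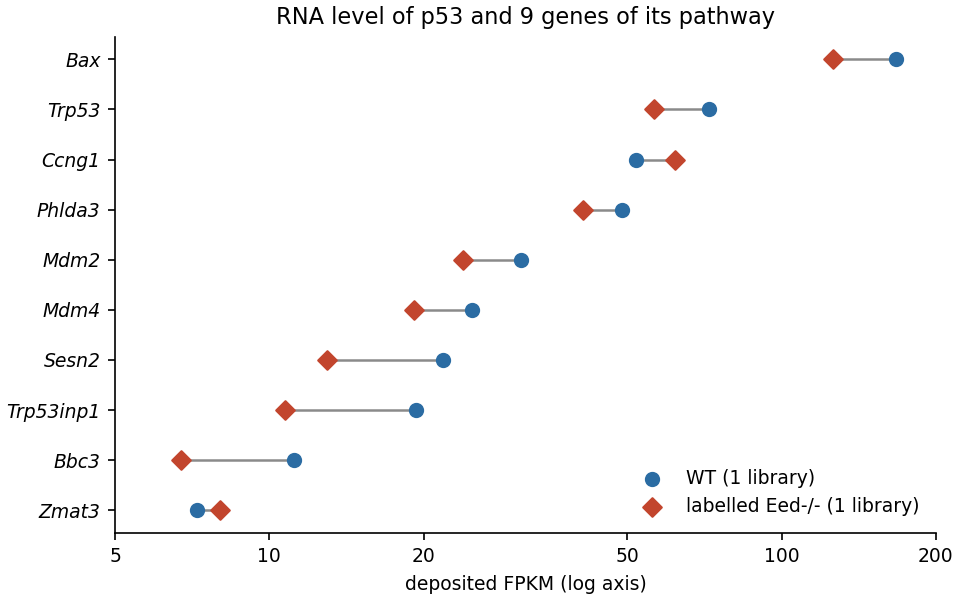
Level of each of the 10 genes in FPKM as deposited (log axis), in the WT library and in the library labelled Eed-/-, 1 point per library and no error bars because there was 1 library per genotype. Bax is highest in both (167 and 126 FPKM), and the points of most genes lie close together.

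*Trp53* itself (chromosome 11, 69393861 to 69405375) was among the most highly expressed genes, at 72.2 FPKM in WT and 56.4 FPKM in the library labelled Eed-/-, above 94.1% and 93.5% of the genes tested. Its difference was -0.12, with a counting interval of -0.28 to 0.03 that includes 0. The interval is centred on the quantile-normalized value and was not recomputed under other scalings. The difference was -0.19 with median-ratio scaling and -0.35 with FPKM as deposited, the latter outside that interval. The values rest on about 828 and 580 fragments. A near-identical stretch of the transcript lies at 1 other locus in the genome, and the split of reads between them is not known.

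*Mdm2*, the ubiquitin ligase (chromosome 10, 117125944 to 117147814), stood at 31.0 FPKM in WT and 23.8 FPKM in the library labelled Eed-/-. The difference was -0.19 (counting interval -0.36 to -0.02). *Mdm4*, the related inhibitor without strong ligase activity of its own (chromosome 1, 134886422 to 134921943), stood at 24.8 and 19.1 FPKM, with a difference of -0.18 (counting interval -0.36 to -0.0013). Both inhibitors thus had values below 0, with counting intervals that cover nearly the same range. *Mdm4* lies on chromosome 1, where the median difference of the other genes was -0.30, so that its value was 0.12 above that median; the part of the chromosome in it was not tested.

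*Ccng1*, which encodes cyclin G1, a p53 target that brings protein phosphatase 2A to MDM2 (chromosome 11, 40562054 to 40568813), was one of the 2 genes with a higher value in the library labelled Eed-/-. Its level was 51.8 FPKM in WT and 62.0 FPKM in the library labelled Eed-/-. The difference of 0.48, or 1.40-fold on the normalized scale, had a counting interval of 0.37 to 0.59. It was higher than that of 83.8% of the genes tested. The levels printed are FPKM as deposited, so their ratio can differ from the fold given with a difference. *Zmat3*, a zinc finger RNA-binding protein induced by p53 (chromosome 3, 32233718 to 32264600), was the other, at 7.22 and 8.03 FPKM. Its difference was 0.27, or 1.21-fold on the normalized scale, with a counting interval of 0.09 to 0.45. *Zmat3* had the lowest level of the 10 in WT, and *Bbc3* the lowest in the library labelled Eed-/-.

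*Bax* and *Bbc3* encode proteins of apoptosis that act at the mitochondrion. *Bax*, whose product forms pores in the outer membrane (chromosome 7, 52717065 to 52722268), had the highest level of the 10, at 167 FPKM in WT and 126 FPKM in the library labelled Eed-/-. Its difference was -0.15, with a counting interval whose upper end, -0.0011, nearly reached 0. *Bbc3*, which encodes PUMA, a protein that binds and inactivates the survival members of the BCL2 family (chromosome 7, 16894965 to 16903554), stood at 11.2 and 6.73 FPKM. The difference was -0.51, or 1.43-fold lower on the normalized scale. It rests on only about 78 and 42 fragments, the fewest of the 10 genes. Its counting interval ran from -1.03 to -0.01, the lower end lying past 2-fold.

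Of the other targets, *Trp53inp1* and *Sesn2* had the lowest differences of the 10. *Trp53inp1*, a p53-induced protein of autophagy and apoptosis (chromosome 4, 11083578 to 11101526), stood at 19.3 FPKM in WT and 10.7 FPKM in the library labelled Eed-/-. The difference was -0.64, or 1.56-fold lower on the normalized scale (counting interval -0.81 to -0.47). It was below that of all but 10.5% of the genes tested. *Sesn2*, which encodes sestrin 2, a leucine sensor that restrains the growth kinase mTORC1 (chromosome 4, 132047947 to 132066416), stood at 21.8 and 13.0 FPKM. Its difference was -0.55, or 1.46-fold lower on the normalized scale (counting interval -0.75 to -0.35). Both lie on chromosome 4, whose other genes had a median difference of 0.02. *Phlda3*, which competes with the kinase AKT for membrane lipids (chromosome 1, 137662696 to 137665713), stood at 48.7 and 40.9 FPKM. Its difference of -0.04 had a counting interval of -0.25 to 0.16 that includes 0, and it was 0.25 above the median of the other genes of chromosome 1. With FPKM as deposited its difference was -0.25.

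**Figure D2:**
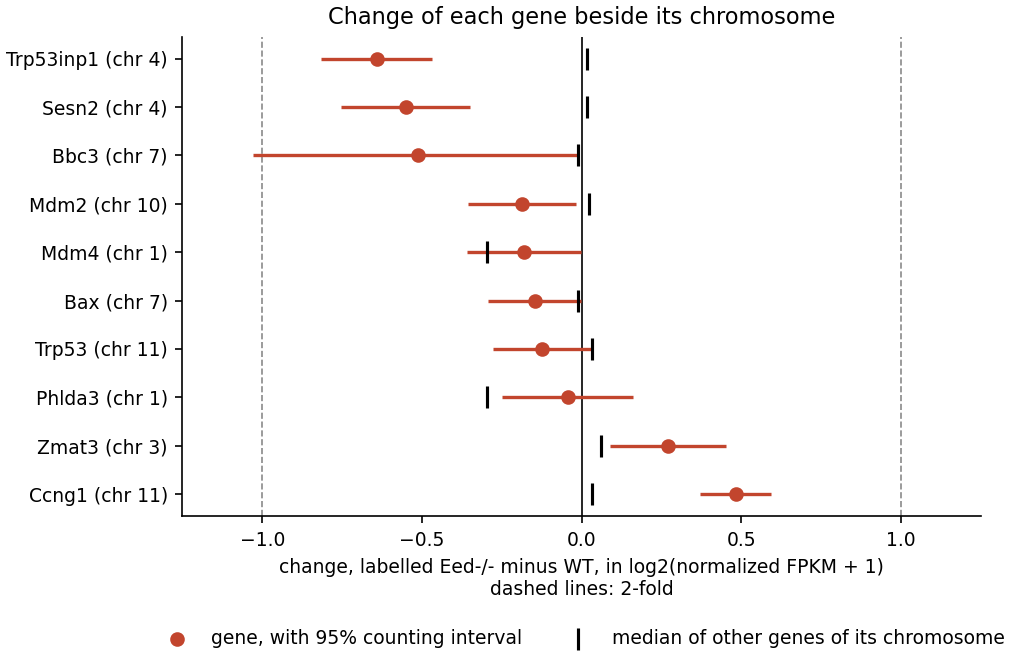
Difference in log2(quantile-normalized FPKM + 1), library labelled Eed-/- minus WT, for each of the 10 genes, with 95% counting intervals (counting error only). Trp53inp1 and Sesn2 lie lowest at -0.64 and -0.55, Ccng1 lies highest at 0.48, and no gene reaches the 2-fold lines at -1 and 1.

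Centred on the quantile-normalized values, the counting interval left out 0 in 8 of the 10 genes. The same held for 42.7% of 13629 genes with recovered fragments and for 59.0% of the 7301 genes with at least the 120 fragments of *Bbc3*. The order of levels changed little between the libraries. From high to low in WT it was *Bax*, *Trp53*, *Ccng1*, *Phlda3*, *Mdm2*, *Mdm4*, *Sesn2*, *Trp53inp1*, *Bbc3* and *Zmat3*. In the library labelled Eed-/-, *Ccng1* stood above *Trp53*, at 62.0 against 56.4 FPKM, and *Zmat3* above *Bbc3*, at 8.03 against 6.73 FPKM. Without replicates, whether neighbours in this order differ beyond the spread between cultures is unknown.

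The scaling between the libraries moved the sizes but not the signs. With FPKM as deposited, the median difference of all genes tested shifted by -0.10 to -0.09, and 57.5% of genes had a difference below 0. The median of the 10 genes was then -0.36, which is -0.27 relative to all genes. With median-ratio scaling it was -0.21, or -0.23 relative to all genes. Under each scaling 8 of the 10 genes lay below 0 and the same number below the median of all genes.

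**Figure D3:**
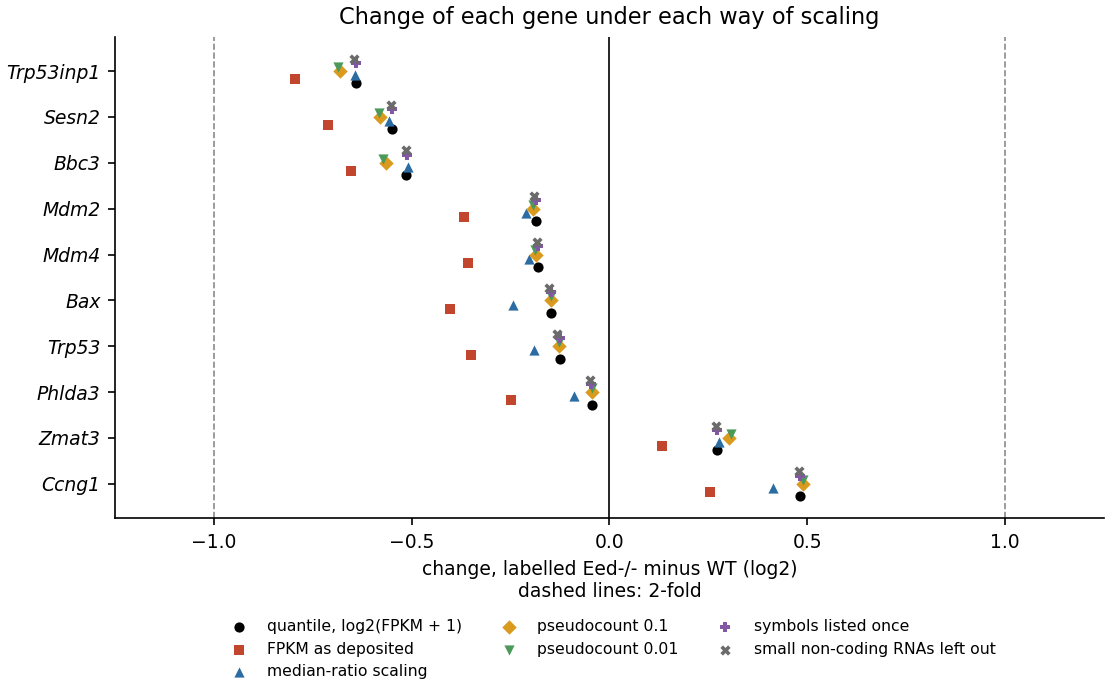
Difference of each of the 10 genes (log2 scale, library labelled Eed-/- minus WT) under the main processing and 6 alternatives, 1 point per setting. No gene changes sign, and the values farthest from the main ones come from FPKM as deposited, as for Bax at -0.40 and Ccng1 at 0.25.

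A list of 42 other p53 targets, of which 40 passed the filter, held 4 genes at least 2-fold higher and 1 at least 2-fold lower in the library labelled Eed-/-, or 12.5% against 7.78% of all genes. As many lay above 0 as below, 20 each, and the median was 0.01. *Pmaip1*, which encodes NOXA, another protein that counters survival members of the BCL2 family (chromosome 18), stood at 9.73 FPKM in WT and 24.0 FPKM in the library labelled Eed-/-, a difference of 1.38 (counting interval 1.13 to 1.62). *Eda2r*, a receptor of the tumour necrosis factor family, stood at 8.48 and 26.7 FPKM, a difference of 1.71 (1.48 to 1.95). It lies on the X chromosome, whose genes had a median difference of 0.46, and the part of the chromosome in this difference was not tested. *Ak1*, adenylate kinase 1, had a difference of 1.18 (21.7 and 43.7 FPKM). *Aen*, a nuclease of apoptosis with near-identical sequence at 1 other locus, had a difference of 1.11 (21.7 and 42.0 FPKM). With FPKM as deposited *Ak1* and *Aen* were below 2-fold, at 0.97 and 0.92, which left 2 higher and 1 lower.

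*Gadd45a*, a stress-induced protein of growth arrest and DNA repair, was the 1 lower gene of that list, at 43.1 FPKM in WT and 10.8 FPKM in the library labelled Eed-/-. Its difference of -1.73 (counting interval -2.10 to -1.38) was larger in size than that of any of the 10 genes above. *Psrc1*, a spindle protein, had the highest level of the list, at 58.8 and 46.2 FPKM. *Cdkn1a*, which encodes the cell cycle inhibitor p21 and is the best known p53 target, is named here after its values were seen. Its level was low in both libraries, at 3.91 and 2.51 FPKM, and with about 19 and 11 fragments its difference of -0.41 (-1.32 to 0.46) has a counting interval that includes 0. The targets named thus lay on both sides of 0.

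Among 21 regulators of p53, 2 were at least 2-fold higher and none lower, or 9.52% against 7.78% of all genes, with a median of -0.06. *Cdkn2a*, whose product ARF binds and inhibits MDM2 and which also encodes p16, stood at 10.1 FPKM in WT and 24.4 FPKM in the library labelled Eed-/-, a difference of 1.36 (counting interval 0.90 to 1.82). The files do not split the ARF and p16 transcripts. *Rpl5*, a ribosomal protein that binds MDM2, stood at 4.00 and 10.9 FPKM, a difference of 1.37, but 6 near-identical copies elsewhere in the genome make its value uncertain. *Npm1*, a nucleolar protein that binds ARF, had the highest level, at 748 and 616 FPKM, and has 3 such copies. Of the 2 relatives of p53, *Trp63* was listed at 0 in both libraries, and *Trp73* was low at 0.64 and 0.85 FPKM.

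The BCL2 family, in which survival and death proteins act around *Bax* and *Bbc3*, had 17 of 20 genes past the filter, with none at least 2-fold higher, 2 at least 2-fold lower and a median of -0.04. These 2 are 11.8% of the genes tested in the family, against 7.78% of all genes. *Bok*, a death protein related to *Bax*, stood at 11.2 and 4.20 FPKM, a difference of -1.11 (counting interval -1.63 to -0.61); it lies on chromosome 1, whose median was -0.29. *Bcl2l12* had the same difference of -1.11 (9.36 and 3.46 FPKM) on about 24 and 8 fragments, with a counting interval of -2.24 to -0.09. *Mcl1*, a survival protein, had the highest level of the family, at 97.3 and 78.2 FPKM. Among 16 caspases and their partners, 1 was at least 2-fold higher, or 6.25% against 7.78% of all genes, and the median was -0.06. *Casp6*, an executioner caspase, stood at 2.49 and 6.92 FPKM, a difference of 1.29 (0.72 to 1.90). *Casp9*, the initiator caspase downstream of *Bax*, stood at 5.66 and 2.29 FPKM, a difference of -0.92 (-1.55 to -0.33). With FPKM as deposited the difference of *Casp9* was -1.02, past 2-fold, so the count for this list depended on the scaling. *Aifm1*, a mitochondrial protein that moves to the nucleus in cell death, had the highest level of this list, at 28.1 and 41.1 FPKM; it lies on the X chromosome.

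**Figure D4:**
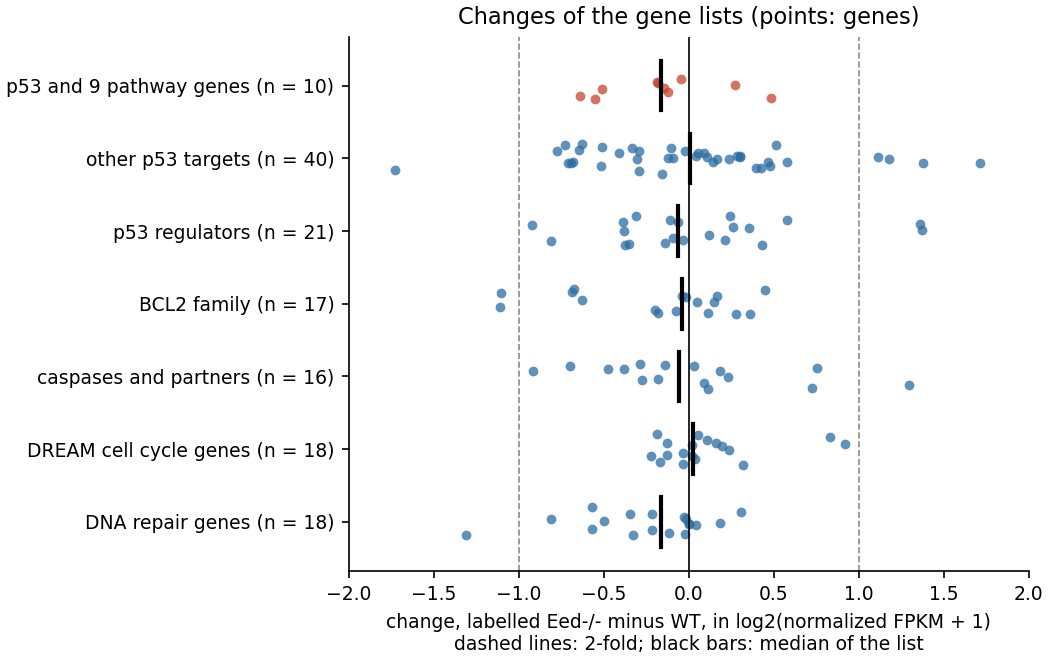
Difference in log2(quantile-normalized FPKM + 1), library labelled Eed-/- minus WT, of each tested gene in the 10 genes and in the other lists, 1 point per gene with the median of each list marked. The 10 genes lie between -0.64 and 0.48, and the other p53 targets, a longer list, between -1.73 and 1.71.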

How the data were processed

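The values analysed were FPKM per gene, 1 deposited table for each of the 2 RNA-seq libraries; per the labels the authors depleted total RNA of ribosomal RNA and made strand-specific libraries with dUTP. The submitters' processing notes name mm9, Bowtie2 2.2.2, TopHat2 2.0.11 and Cufflinks 2.2.1; the gene annotation and the program options were not given in the sources used here. Symbols of small non-coding RNAs held most of the FPKM total, 97.8% for WT and 96.0% for the library labelled Eed-/-. A symbol listed more than once (268 of 24028) was summed; none of the 10 genes was. Values were quantile-normalized between the 2 libraries, and differences were taken as log2(value + 1), a scale that understates those of low genes. A gene was called tested where its normalized FPKM averaged 0.1 or more. Files held no counts. Fragments were recovered from the steps of low values and GENCODE transcript lengths less 180 bases (79.9% of low values in each library lay within 0.1 of a whole number, 18.5% and 19.6% with lengths shuffled), and are approximate for genes with several transcripts. Counting intervals are exact Clopper-Pearson intervals at 95% of the ratio of fragments; they cover counting error only. No p-value was computed. The tools were scipy 1.17.1, pandas 2.3.3 and numpy 2.4.6 under Python 3.11.15 and, for near-identical copies (at least 500 aligned bases at 95% identity), minimap2 2.31. The scripts were tested on simulated data.

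All 10 genes and *Eed* are named; of every other list, the genes at least 2-fold different (at most 6), or, where fewer than 2 were, the 2 tested genes with the largest difference in size, and the gene with the highest level. *Cdkn1a* and the markers named fall outside this rule. The genes and lists were chosen with earlier results of these data known. Alternatives covered the scaling, the pseudocount, the filter, the fold threshold, repeated symbols, small non-coding RNAs and fragment lengths; leaving out chromosomes 1, 8 and X was added after seeing the data.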

Additional observations from a re-analysis of the deposited data

How the results depend on the processing

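Of 117 values recomputed under an alternative, 109 stayed within their limits and 8 moved. For a gene's difference the limits were its counting interval, and for a count a set factor. For a median they came from the spread of the list's own genes, -0.55 to 0.27 for the 10 genes. Some values could not move, as the 10 genes passed every filter and a higher fold threshold cannot raise a count of 0. The tally therefore does not measure stability. Under the alternatives run, none of the 10 genes reached the fold threshold in either direction. Each gene's difference was recomputed under 6 alternatives: no sign changed, and 4 of the 60 values moved beyond counting error, those of *Trp53* (-0.35), *Mdm2* (-0.37), *Ccng1* (0.25) and *Bax* (-0.40) with FPKM as deposited. Among other p53 targets, the number at least 2-fold higher was 4 in the main processing, 5 with a pseudocount of 0.1 or 0.01, 2 with FPKM as deposited and 1 with a 3-fold threshold. The number at least 2-fold lower was 1, but 2 with a pseudocount of 0.1 and 3 with a pseudocount of 0.01. Without the genes of chromosomes 1, 8 and X, whose medians were -0.29, -0.39 and 0.46, the list had 3 genes higher and 1 lower, with a median of 0.05, and without chromosome 1 the median of the 10 genes was -0.17. The 10 counting intervals gave the same count of 8 without 0 when the full transcript length was used. That length gives more fragments and narrower intervals around the same values, so the equal count does not show stability. The count was not redone under other scalings. With 1 library per genotype, neither the spread between cultures nor the effect of leaving out a library could be measured.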

Other observations

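Cell cycle genes that p53 lowers through the DREAM repressor complex showed no gene at least 2-fold different among 18 tested (7.78% of all genes were), with a median of 0.03. The largest differences were those of *Mki67*, the proliferation marker Ki-67 (16.4 FPKM in WT and 28.5 FPKM in the library labelled Eed-/-, a difference of 0.92), and *Birc5*, which encodes survivin (122 and 181 FPKM, 0.83). *Top2a*, a topoisomerase of dividing cells, had the highest level in WT, at 210 FPKM. In the library labelled Eed-/- it stood at 174 FPKM, below *Birc5*, which was highest there. Of these 18 genes, 7 lay below 0 with quantile normalization and 14 with FPKM as deposited, against 49.0% and 57.5% of all genes, so the direction of the list depended on the scaling.

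Among 18 DNA repair genes, 14 lay below 0 and the median was -0.17. With FPKM as deposited 16 lay below 0. Of all genes tested, 49.0% lay below 0 with quantile normalization and 57.5% with FPKM as deposited. *Xrcc5*, which encodes the Ku80 subunit that holds broken DNA ends, was the 1 gene of the 18 at least 2-fold lower (3.98% of all genes were), at 127 FPKM in WT and 42.8 FPKM in the library labelled Eed-/-, a difference of -1.31 (counting interval -1.43 to -1.18). *Xrcc5* lies on chromosome 1, whose genes had a median of -0.29. *Xrcc1*, a scaffold of single-strand break repair, had a difference of -0.81 (43.1 and 21.1 FPKM), and *Msh6*, a mismatch repair protein, had the highest level in WT, at 278 FPKM.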
